A study of Mus musculus with 13 samples.

Results

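Hoxa9, Hoxa10, Hoxa11 and Hoxa13 form the posterior (5′) end of the HoxA cluster and were chosen by name, as 4 of the 22367 protein-coding gene records of the GENCODE vM1 annotation. Every peak that overlapped the 1 kb on either side of a gene's first start site, called its promoter here, or the gene record itself, called its body, was collected from each of 5 lists of ChIP-seq peaks. ChIP-seq maps where a protein or a histone mark sits on DNA, and a peak is a region with more sequenced fragments than the background gives. All 5 lists came from wild-type mouse embryonic stem cells (mESCs) of a male 129/1 line, according to the labels. They cover endogenous AEBP2 (replicates 1 and 2), the histone mark H3K27me3 (replicates 1 and 2) and FS2-AEBP2, an AEBP2 with an N-terminal Flag-StrepII tag expressed from a plasmid, for which there is 1 list and no replicate.

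The labels call the genotype of all 5 samples wild-type and name no treatment, and for the tagged protein the methods give E14 mESCs where the labels give the 129/1 line. The tagged protein was precipitated with another protocol and antibody than the endogenous proteins, so differences between FS2-AEBP2 and endogenous AEBP2 cannot be told apart from differences of protocol. The labels give the histone antibody as directed against H3K27, and the study names the trimethylated form. Replicate numbers of H3K27me3 follow the sample records, and the file labels seem to swap them. Nothing says that the replicates came from separate cultures, and the SUZ12, input and Aebp2tr/tr samples were not analysed here.

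Polycomb repressive complex 2 (PRC2) adds methyl groups to lysine 27 of histone H3, and H3K27me3 covers the Hox clusters in pluripotent cells, where Hox genes are mostly silent. AEBP2 is a zinc finger protein that associates with PRC2. Hox genes encode homeodomain transcription factors and lie in the order in which they act along the body axis. The posterior HoxA genes act late, in the hindmost trunk, the limbs, the urogenital tract and, for Hoxa9, blood stem cells. Recruitment of PRC2 in mammals is known to favour CpG islands, stretches rich in the dinucleotide CG.

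All 4 genes lie on the minus strand of chromosome 6 in mm9. Hoxa9 (ENSMUSG00000038227) runs from 52173099 to 52181088, Hoxa10 (ENSMUSG00000000938) from 52181196 to 52190853, Hoxa11 (ENSMUSG00000038210) from 52192107 to 52196213, and Hoxa13 (ENSMUSG00000038203) from 52207693 to 52210874. Together they span 37776 bp. The gene records join transcripts with different starts, so the first start site of Hoxa9 (52181088, transcript Hoxa9-004) and of Hoxa10 (52190853, transcript Hoxa10-004) lies upstream of the start of the transcripts numbered first, at 52177369 for Hoxa9-001 and 52184938 for Hoxa10-001.

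The 250 bases just upstream of 1 start site of each gene are shown because they differ widely in CG content and in how the lists cover them. They were read from the mm9 genome on the minus strand, 5′ to 3′ towards the start site, and each CG dinucleotide is in capitals. Hoxa9-001 is chr6:52177370-52177619, within a Hoxa9 intron, and Hoxa10-001 is chr6:52184939-52185188, within a Hoxa10 intron. Hoxa11-001 is chr6:52196214-52196463, which overlaps the antisense gene Hoxa11as, and Hoxa13, for its first start site, is chr6:52210875-52211124, outside the gene records.
Hoxa9-001: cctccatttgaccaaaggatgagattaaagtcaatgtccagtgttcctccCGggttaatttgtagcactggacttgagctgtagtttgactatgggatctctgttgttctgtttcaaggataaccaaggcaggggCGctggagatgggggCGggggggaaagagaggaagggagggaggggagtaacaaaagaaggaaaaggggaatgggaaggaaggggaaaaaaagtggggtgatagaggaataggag
Hoxa10-001: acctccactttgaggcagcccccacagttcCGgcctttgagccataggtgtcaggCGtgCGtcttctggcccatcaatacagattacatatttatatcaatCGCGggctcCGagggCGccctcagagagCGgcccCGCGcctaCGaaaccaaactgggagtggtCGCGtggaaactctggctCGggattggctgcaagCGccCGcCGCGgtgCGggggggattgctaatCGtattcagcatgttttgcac
Hoxa11-001: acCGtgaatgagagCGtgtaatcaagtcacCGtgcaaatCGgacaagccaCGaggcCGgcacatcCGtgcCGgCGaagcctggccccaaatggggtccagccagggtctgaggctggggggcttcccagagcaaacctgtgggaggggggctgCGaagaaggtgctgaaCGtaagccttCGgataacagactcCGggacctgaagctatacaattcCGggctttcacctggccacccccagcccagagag
Hoxa13: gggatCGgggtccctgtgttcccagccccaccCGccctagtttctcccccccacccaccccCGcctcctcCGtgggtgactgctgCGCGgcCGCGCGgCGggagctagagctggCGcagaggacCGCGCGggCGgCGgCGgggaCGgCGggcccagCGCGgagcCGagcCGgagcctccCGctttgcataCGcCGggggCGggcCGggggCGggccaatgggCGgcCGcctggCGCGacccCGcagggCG

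These windows hold 3 CG dinucleotides at Hoxa9-001, 20 at Hoxa10-001, 14 at Hoxa11-001 and 35 at Hoxa13, against a median of 8 over 22349 promoters. At least as many as at Hoxa13 were found in 3.42% of those promoters, and at least as many as at Hoxa9-001 in 75.4%. The GC content rose from 49.6% at Hoxa9-001 to 80.0% at Hoxa13. Hoxa9-001 and Hoxa10-001 do not start at the first start sites that define the promoters here. Upstream of the first Hoxa10 start site, that of Hoxa10-004, the 250 bases hold 7 CG dinucleotides at a GC content of 51.6%.

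At all 4 promoters, a peak was present in every list. Over all protein-coding promoters, the share with a peak was 9.08% in AEBP2 replicate 1, 22.3% in AEBP2 replicate 2, 6.53% for FS2-AEBP2, 17.0% in H3K27me3 replicate 1 and 17.7% in H3K27me3 replicate 2. A peak in all 5 lists was found at 1023 promoters, or 4.57%, and the 4 posterior HoxA promoters were among them. The breadth of the cover was rarer than its presence. At least 50% of the gene body was covered in all 5 lists for 4 of 4 posterior HoxA genes and for 4 of the 6 genes from Hoxa2 to Hoxa7. The same held for 252 of all genes, or 1.13%. The anterior exceptions were Hoxa3 and Hoxa4, at 44.7% and 37.1% in AEBP2 replicate 1. The Hoxa3 record measures 49981 bp and holds those of Hoxa4, Hoxa5 and Hoxa6. Over the 5 lists, the 10 kb centred on the Hoxa3 start site was covered to 87.6% to 100%. At least 50% of the 10 kb centred on the start site was covered in every list for 212 genes, or 0.948%, which again included all 4.

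**Figure D1:**
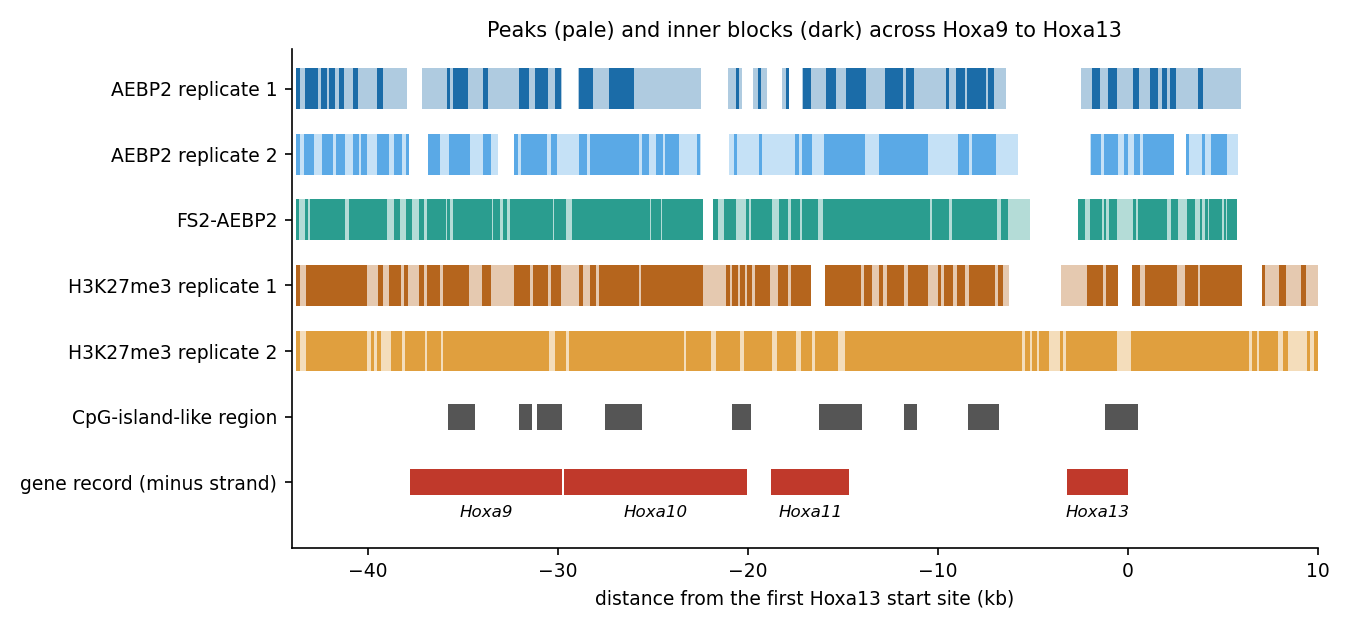
Peaks and their inner blocks in each list across the posterior HoxA genes, with the distance from the first Hoxa13 start site in kb on the horizontal axis and 1 row per list, above the CpG-island-like regions and the gene records. Pale bars are broad peaks and dark bars the inner blocks within them. The 3 AEBP2 lists share a gap of 2521 bp between Hoxa11 and Hoxa13.

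The lists differ in how they divide the same ground. From Hoxa9 to Hoxa13, AEBP2 replicate 1 had 7 peaks, AEBP2 replicate 2 had 4, FS2-AEBP2 had 3 and H3K27me3 replicate 1 had 3, whereas 1 peak of 81245 bp in H3K27me3 replicate 2 (52146302 to 52227546) held all 4 genes and ranked 4th by length in its list. Each broad peak also contains inner blocks, narrower stretches that the authors' files list inside it. These were used as a finer measure, since a broad peak can span ground between blocks. The score deposited with each peak has no stated scale, so it is given here as a rank, the percentage of peaks in the same list with a lower score. The 5 lists hold 2877, 6779, 2884, 14112 and 9275 peaks in the order of the map, with median lengths from 855 bp to 2244 bp.

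Hoxa9, which sustains blood stem and progenitor cells and helps to pattern the posterior trunk, was covered to 92.4% and 77.8% of its body in the AEBP2 replicates, and to 100% for FS2-AEBP2 and in both H3K27me3 replicates. In AEBP2 replicate 1, a peak of 7415 bp with a score of 15 (52173709 to 52181123, above 85.0% of its list) lay over nearly the whole gene. AEBP2 replicate 2 had a peak of 3676 bp over the 3′ part (52174031 to 52177706, above 93.5%) and a peak of 9886 bp (52178552 to 52188437, above 96.6%) that ran on into Hoxa10. The FS2-AEBP2 peak over Hoxa9 (52141628 to 52188519) reached far into the anterior cluster and scored above 98.0% of its list. The H3K27me3 replicate 1 peak measured 44261 bp (52149961 to 52194221), ranked 16th by length and scored above 98.7%.

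The Hoxa9-001 start site, at 52177369, lay outside the inner blocks of endogenous AEBP2. The run without an inner block around it measured 1628 bp in replicate 1 (52177198 to 52178825) and 1232 bp in replicate 2 (52177346 to 52178577). The start site lay near the downstream edge of these runs, in replicate 2 almost at an inner block. In replicate 2 the run also includes a gap of 845 bp between broad peaks. In the 250 bases upstream, printed above with 3 CG dinucleotides, inner blocks covered 0 bases in either AEBP2 replicate, 187 for FS2-AEBP2, 13 in H3K27me3 replicate 1 and all 250 in H3K27me3 replicate 2. The start site of Hoxa9-002, at 52176150, lay inside an inner block in all 5 lists and within a CpG-island-like region of 1400 bp (52175109 to 52176508). In both AEBP2 replicates the same broad peak held the pair of starts, and only that of Hoxa9-002 was inside an inner block.

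The gene of the microRNA miR-196b, a repressor of Hox transcripts, lies inside the Hoxa9 record at 52180080 to 52180164 on the minus strand. All 85 bp of it were inside a peak and inside an inner block in all 5 lists. Its mature sequences are shown, from RefSeq (GRCm38.p6), because the precursor lay wholly inside inner blocks in every list. The seed, bases 2 to 8, is in capitals.
mmu-miR-196b-5p: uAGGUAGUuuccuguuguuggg
mmu-miR-196b-3p: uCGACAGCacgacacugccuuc

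Hoxa10, which suppresses rib formation in the lumbar spine and is needed in the uterus, was covered to 74.3% and 85.0% of its body in the AEBP2 replicates, 94.6% for FS2-AEBP2 and 100% in both H3K27me3 replicates. Its upstream start site was the weakest promoter of the 4 for AEBP2 replicate 1. The peaks there measured 723 bp (52189861 to 52190583, score 4, above 16.3% of the list) and 726 bp (52191163 to 52191888, score 5, above 26.7%), and the start site itself lay between them. The same promoter in AEBP2 replicate 2 lay in a peak of 15235 bp (52189886 to 52205120) with a score of 49, above 98.2% of its list. The replicates thus ranked the peaks at the same promoter low and high. A score belongs to a whole peak, and that of replicate 2 ran on over Hoxa11. Inner blocks within 1 kb of the start site covered nearly the same share in both, 17.6% and 17.5%. FS2-AEBP2 had a peak of 16703 bp there (52189037 to 52205739, above 98.0%).

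The downstream start of Hoxa10, that of Hoxa10-001, lay inside a peak in all lists. In AEBP2 replicate 1 this was the peak from 52181961 to 52188411, with a score of 16 above 87.1% of the list. Just downstream of this start, the inner blocks of all 5 lists had 1323 bp in common (52183557 to 52184879), the longest such run in the posterior HoxA stretch. Within 1 kb of the start site in both directions, inner blocks held 47.1% and 77.9% in the AEBP2 replicates, 97.3% for FS2-AEBP2 and 93.9% and 100% in the H3K27me3 replicates. Around the upstream start site the same measure was 17.6%, 17.5%, 65.9%, 72.7% and 90.2%, lower in each list.

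Hoxa11, which patterns the forearm and the kidney and uterus, was covered to 69.4% and 100% in the AEBP2 replicates, 100% for FS2-AEBP2, and 82.9% and 100% in the H3K27me3 replicates. All 250 bases upstream of Hoxa11-001 lay inside inner blocks in every list, and so did the start site. Within 1 kb of it, inner blocks covered 68.2%, 91.2%, 100%, 91.5% and 80.4% in the order of the map. The start site of Hoxa11-002, at 52195794, lay outside the inner blocks in AEBP2 replicate 1 and H3K27me3 replicate 2. The AEBP2 peaks over these starts were 10737 bp in replicate 1 (52193754 to 52204490, score 13, above 80.0%) and the same 15235 bp peak as at Hoxa10 in replicate 2. In H3K27me3 replicate 1 the peak ran from 52194923 to 52204627, measured 9705 bp and scored above 95.5% of its list. Inner blocks common to the 3 AEBP2 lists ran for 999 bp across the start of Hoxa11-001 (52196038 to 52197036). They also ran for 968 bp (52198094 to 52199061) in Hoxa11as, the antisense transcript gene that overlaps Hoxa11.

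Hoxa13, which acts in the hand and foot plates and the genital tract, was covered to 77.7% and 62.1% in the AEBP2 replicates, 82.1% for FS2-AEBP2 and 84.0% and 100% in the H3K27me3 replicates. Its peaks were 8409 bp in AEBP2 replicate 1 (52208402 to 52216810, score 17, above 88.3% of the list), 4390 bp in AEBP2 replicate 2 (52208900 to 52213289, score 35, above 95.7%) and 8381 bp for FS2-AEBP2 (52208261 to 52216641, score 26, above 84.3%). In H3K27me3 replicate 1 the start site was in no peak. It lay in a gap of 749 bp (52210366 to 52211114) between a peak of 2996 bp (above 79.4%) and a peak of 5782 bp (above 72.8%).

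The inner blocks showed a similar gap in other lists. The first Hoxa13 start site was outside the inner blocks in 4 of the 5 lists, the exception being AEBP2 replicate 2, in which it lay in an inner block of 203 bp. The empty runs of those 4 lists measured 768 to 815 bp. Their downstream ends lay within 52 bp of each other and their upstream ends within 77 bp, although 1 list was for endogenous AEBP2, 1 for the tagged protein and 2 for the histone mark. The gap in the H3K27me3 replicate 1 peaks has a GC content of 78.6%, against 50.3% from Hoxa9 to Hoxa13 as a whole, and 118 CG dinucleotides. The part of this base composition in the missing blocks was not tested. Inner blocks covered 0, 20, 0, 4 and 59 of the 250 bases upstream of Hoxa13 in the order of the map, although this is the printed window richest in CG.

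**Figure D2:**
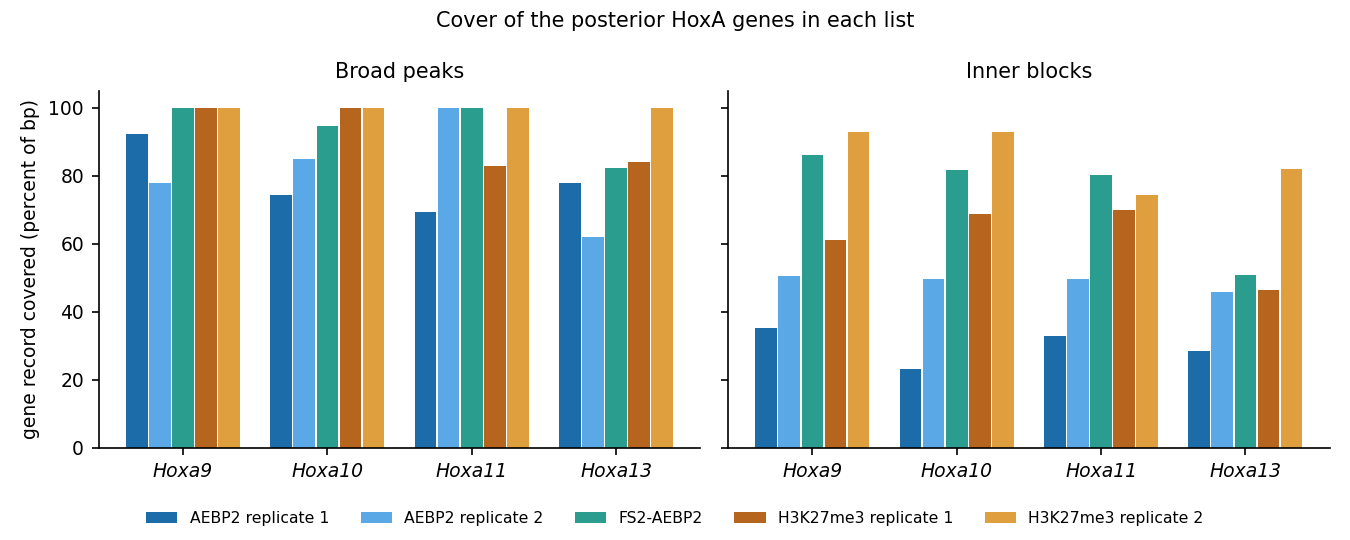
Percentage of the base pairs of each gene record covered in each list, by broad peaks on the left and by inner blocks on the right, with 1 bar per list and gene. In broad peaks all bars stand at 62.1% or higher, and in inner blocks AEBP2 replicate 1 is the lowest for every gene, from 23.3% to 35.1%.

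Measured by inner blocks, the order of the lists was nearly the same at every gene, apart from Hoxa11, where FS2-AEBP2 stood above H3K27me3 replicate 2. The blocks covered from 23.3% (Hoxa10) to 35.1% (Hoxa9) of the bodies in AEBP2 replicate 1, and from 45.7% (Hoxa13) to 50.6% (Hoxa9) in AEBP2 replicate 2. For FS2-AEBP2 the range was 50.8% (Hoxa13) to 86.0% (Hoxa9). H3K27me3 replicate 1 gave 46.5% (Hoxa13) to 69.8% (Hoxa11), and replicate 2 gave 74.4% (Hoxa11) to 92.9% (Hoxa9). In 3 lists Hoxa13 was lowest.

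The 4 genes have 18 annotated transcripts with 14 distinct start sites, and each of these had a peak within 1 kb in every list. Peaks covered 76.5% to 100% of the stretch, which makes this likely, and no share over all start sites is given for this window. Inside a peak lay 12 of them in AEBP2 replicate 1, 11 in H3K27me3 replicate 1 and 14 in each of the other lists. Over the start sites of all protein-coding genes, 5.56%, 15.0%, 2.65%, 10.7% and 9.19% lay inside a peak, in the order of the map. The 2 starts missed by AEBP2 replicate 1 were those of Hoxa10-004 and Hoxa10-003, and the 3 missed by H3K27me3 replicate 1 were all of Hoxa13. Inside an inner block lay 4 starts in AEBP2 replicate 1, 9 in H3K27me3 replicate 1 and 10 in each of AEBP2 replicate 2, FS2-AEBP2 and H3K27me3 replicate 2, where the background shares were 3.03%, 6.46%, 9.73%, 1.26% and 4.48%. Starts of the same gene share peaks and are not independent.

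Over the whole stretch from Hoxa9 to Hoxa13, cover by AEBP2 peaks was 76.5% and 81.5% in the replicates (79.0% ± 3.47, SD, n = 2), FS2-AEBP2 peaks 92.0%, and H3K27me3 peaks 89.5% and 100% (94.8% ± 7.40, SD, n = 2). Of the base pairs covered in either AEBP2 replicate, 83.9% were covered in both, against 45.9% over the genome. For H3K27me3 the shared part was 89.5% here and 48.2% over the genome. As H3K27me3 replicate 2 covered 100% of the stretch, this shared part equals the cover of replicate 1. High cover of a stretch by itself raises the shared part, so these values do not show that the replicates agree better here. Every base pair of an AEBP2 peak of either replicate within the stretch was also inside an FS2-AEBP2 peak. Over the genome this held for 68.6% of the base pairs of replicate 1 and 44.3% of those of replicate 2. From Hoxa2 to Hoxa7 it held for 100% and 98.9%. FS2-AEBP2 peaks covered 92.0% of the posterior stretch, which by itself makes such containment likely. All 5 lists covered 26016 bp, or 68.9% of the stretch, and no base pair was left out by all of them.

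Only 2 runs within the stretch were free of peaks in all 3 AEBP2 lists, 3038 bp or 8.04% in all. The shorter, of 517 bp (52188520 to 52189036), lies in the Hoxa10 intron between its start sites. The AEBP2 peaks downstream of it ended within 108 bp of each other, at 52188411, 52188437 and 52188519. The longer, of 2521 bp (52205740 to 52208260), separates Hoxa11 from Hoxa13 and reaches the 3′ end of Hoxa13. H3K27me3 replicate 1 had a gap of 2742 bp there as well (52204628 to 52207369), while H3K27me3 replicate 2 had none. Both runs are poor in CG, with a GC content of 33.1% and 2 CG dinucleotides in the shorter and 35.4% and 23 in the longer. These AEBP2 gaps and the gap at the Hoxa13 start therefore lie at opposite ends of base composition.

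Upstream of Hoxa13, towards Evx1, the next homeobox gene, the cover first broke for at least 1 kb at nearly the same place in 4 lists. Reading on until the first gap of at least 1 kb, the last covered base was 52216810 and 52216683 in the AEBP2 replicates, 52216641 for FS2-AEBP2 and 52216896 in H3K27me3 replicate 1, a spread of 255 bp. The gaps that followed in these 4 lists measured 42779, 6489, 6235 and 1030 bp. That of H3K27me3 replicate 1 only just passed the limit, and a larger limit would move its end further upstream. The end in H3K27me3 replicate 2 was 52227546. The ends of the first 4 lists lie inside Gm15053 (52212769 to 52217597), a gene on the plus strand. Over the 52617 bp between Hoxa13 and Evx1 the cover fell to 17.4%, 19.9%, 27.5%, 53.2% and 64.3% in the order of the map. Peaks were again present in all lists at the promoters of Evx1, 5730457N03Rik and Gm15053, and at that of Hoxa11as within the cluster. No list had a peak at the promoters of Gm8129 and Gm15054, beyond Evx1. The same held for Gm15055, Gm8078 and Gm15052, which lie beyond Hoxa2 at the opposite end of the cluster. The other neighbours examined, at or near Hoxa2 to Hoxa9, had promoter peaks in all lists, except that Gm15051 had none in AEBP2 replicate 1.

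To ask whether the posterior end differs from the anterior end of the same cluster, the stretch was set beside that from Hoxa2 to Hoxa7 (52112350 to 52171853, 59504 bp), whose genes pattern the hindbrain and the front of the trunk. The anterior stretch was covered to 51.9% and 69.0% in the AEBP2 replicates (60.4% ± 12.1, SD, n = 2), 95.4% for FS2-AEBP2, and 89.3% and 99.0% in the H3K27me3 replicates (94.2% ± 6.84, SD, n = 2). The posterior cover was higher by 24.7 and 12.4 percentage points in the AEBP2 replicates and by 0.207 and 0.992 in the H3K27me3 replicates, and FS2-AEBP2 differed by -3.45. Within a list, both replicates of each endogenous target were higher at the posterior end, by more for AEBP2 than for H3K27me3. H3K27me3 replicate 2 was near 100% at both ends, which leaves little room for a difference. FS2-AEBP2 went the other way. Peaks of FS2-AEBP2 and of both H3K27me3 replicates ran across both ends. With 2 lists a target this is a description and was not tested.

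**Figure D3:**
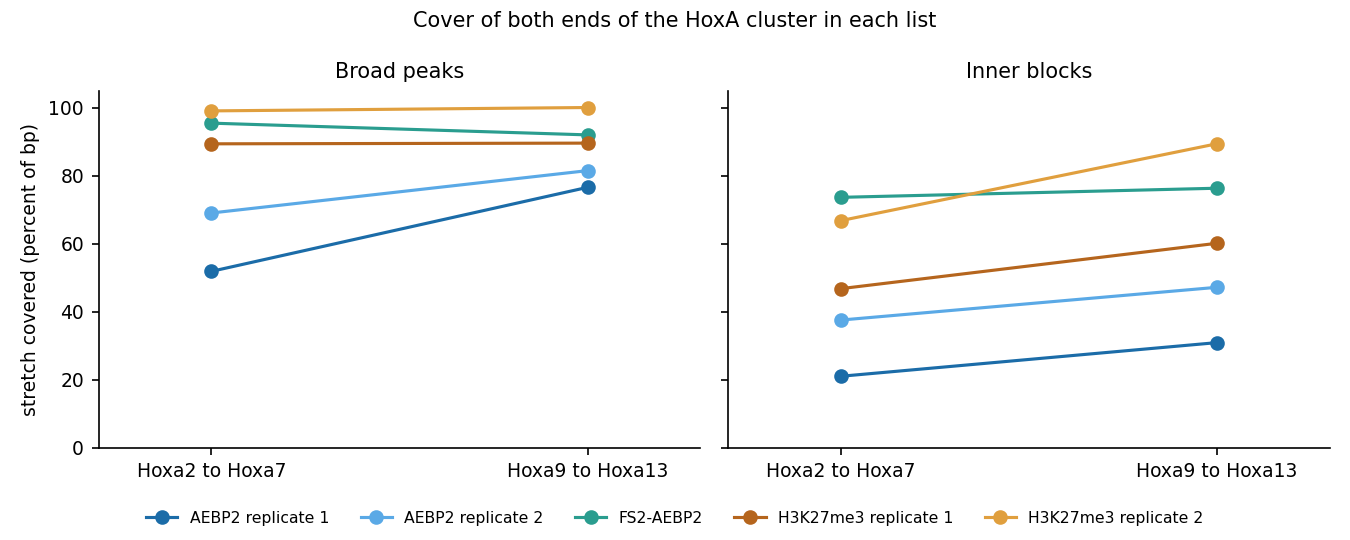
Percentage of the Hoxa2 to Hoxa7 stretch and of the Hoxa9 to Hoxa13 stretch covered in each list, by broad peaks on the left and inner blocks on the right, with 1 line per list. For broad peaks the steepest lines are those of AEBP2 replicates 1 and 2, and the value of FS2-AEBP2 fell by 3.45 points, whereas all 5 lines rise for inner blocks.

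By inner blocks the difference was 9.89 and 9.63 points in the AEBP2 replicates, 2.68 for FS2-AEBP2, and 13.3 and 22.6 in the H3K27me3 replicates. The posterior end was thus higher in all 5 lists on this measure, and the order of the targets was not that of the broad peaks. The part covered in both AEBP2 replicates, as a share of that covered in either, was 72.2% at the anterior end, lower than the 83.9% at the posterior end. The cover of each replicate was lower there too, which by itself lowers the shared part. All 6 anterior promoters had a peak in every list, and the 10 kb around them varied widely. The 10 kb around Hoxa4 was covered to 7.72% in AEBP2 replicate 1 and 32.6% in replicate 2, against 92.5% and 90.2% around Hoxa7.

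Across the posterior stretch, 9 CpG-island-like regions were found, defined as joined windows of 500 bp in which GC made up 55% or more of the bases and the ratio of observed to expected CG was 0.65 or more. They cover 12056 bp of it. All 9 had a peak and an inner block in each of the 5 lists. Peaks covered 76.5% to 100% of the stretch, which by itself makes a peak in each region likely. No share of such regions over the genome is given here. At the anterior end 16 such regions were found, of which 15 had a peak in AEBP2 replicate 1 and 16 in each of the others. The largest of the posterior regions were at the starts of Hoxa11 (52194639 to 52196888, 2250 bp, 145 CG dinucleotides), Hoxa10-001 (52183369 to 52185328, 1960 bp, 150) and Hoxa13 (52209689 to 52211428, 1740 bp, 192).

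Endogenous AEBP2 inner blocks covered a larger share inside these regions than outside. In AEBP2 replicate 1 they covered 61.2% of the base pairs inside CpG-island-like regions and 16.7% of those outside, and in replicate 2 they covered 77.4% and 33.0%. The tagged protein gave 84.4% and 72.5%. H3K27me3 gave 80.4% and 50.6% in replicate 1, but 87.7% and 90.1% in replicate 2, where the order was turned. The same order of inside and outside was seen in each list at the anterior end. As the regions are large and the lists are few, these shares are descriptions.

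**Figure D4:**
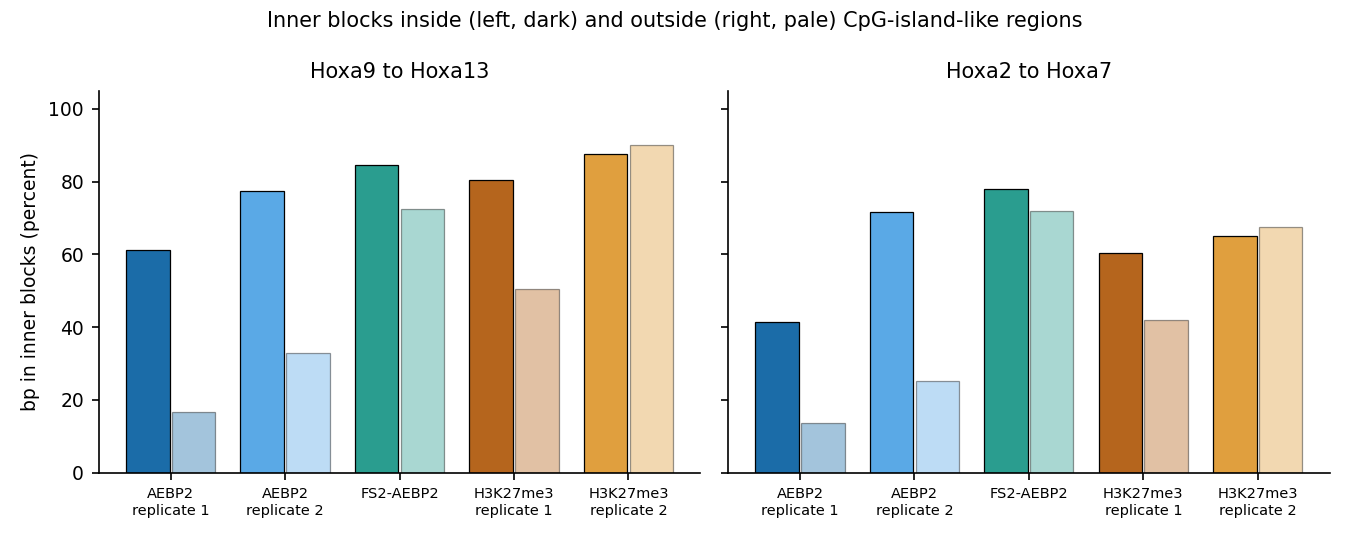
Percentage of base pairs in inner blocks inside (dark, left bar of each pair) and outside (pale, right bar) CpG-island-like regions, for each list, at the posterior and anterior ends of the cluster. At the posterior end the pair of AEBP2 replicate 1 stands at 61.2% and 16.7%, and that of H3K27me3 replicate 2 at 87.7% and 90.1%.

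Coding sequence of the 4 genes, 4150 bp in all, was the annotation class richest in AEBP2 inner blocks. They covered 70.0% and 88.6% of it in the AEBP2 replicates and 89.2% for FS2-AEBP2. Introns (12451 bp), exon sequence outside the coding parts (8336 bp) and the ground between the genes (12839 bp) were covered to 20.1% to 34.0% in AEBP2 replicate 1, 33.0% to 47.5% in replicate 2 and 67.6% to 83.1% for FS2-AEBP2. The exon sequence outside the coding parts was lowest in all 3. The H3K27me3 replicates differed. In replicate 1 coding sequence was the class with most inner blocks, with 88.2% against 47.2% to 66.3% for the others, and in replicate 2 it was the class with least, with 81.4% against 87.1% to 91.6%. The coding exons and the CpG-island-like regions overlap, and their parts were not separated.

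The 12 genes of paralogue groups 9 to 13 in HoxB, HoxC and HoxD, which arose with the posterior HoxA genes by duplication of the cluster, had a promoter peak in all 5 lists without exception. At least 50% of the body was covered in all lists for 10 of the 12. The exceptions were both of group 13. Hoxb13 was covered to 37.6% and Hoxc13 to 32.8% in AEBP2 replicate 1, while Hoxd13 was covered to 100% in every list. Hoxa13, with 77.7% in that list, fell between them. The promoter peak of Hoxb13 in AEBP2 replicate 1 ranked above 26.7% of its list, the same as at the upstream start of Hoxa10.

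**Figure D5:**
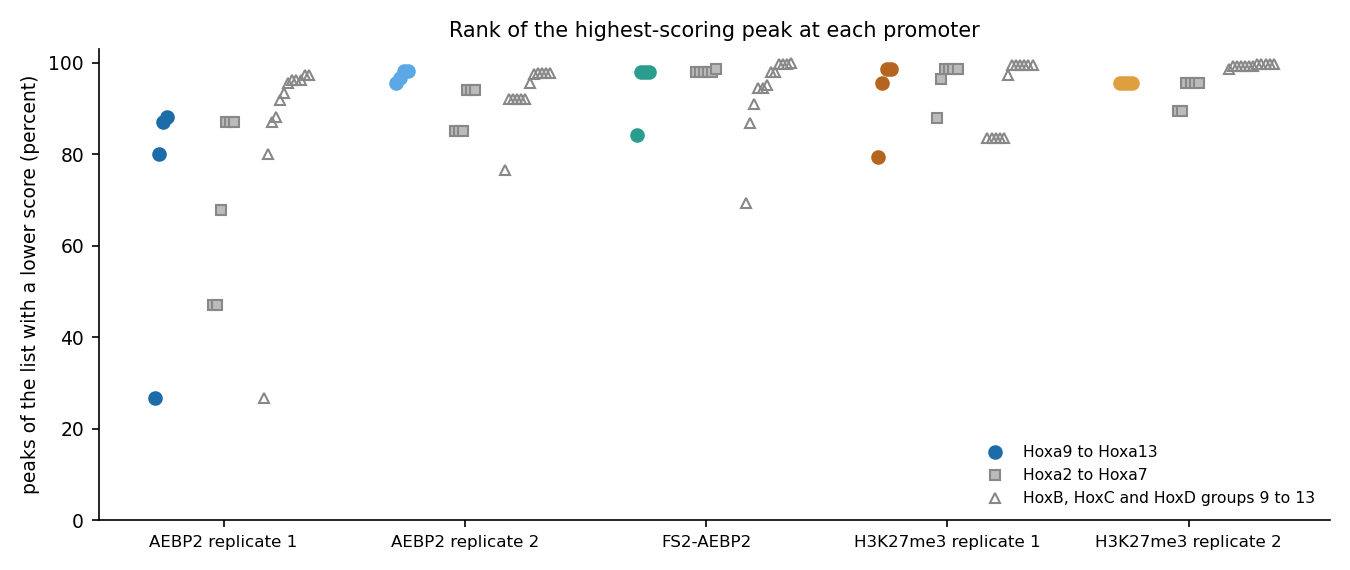
Rank of the highest-scoring peak at each promoter, as the percentage of peaks in the same list with a lower score, for the 4 posterior HoxA genes (filled circles, coloured by list), Hoxa2 to Hoxa7 (squares) and the 12 paralogues in HoxB, HoxC and HoxD (open triangles). Genes in the same peak share a value, and points are spread sideways for sight. Hoxa10 is the low circle in AEBP2 replicate 1 at 26.7%, and Hoxa13 is the lowest circle for FS2-AEBP2 at 84.3% and in H3K27me3 replicate 1 at 79.4%.

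In score, the posterior HoxA promoters mostly stood high in their lists, apart from Hoxa10 in AEBP2 replicate 1. Their median rank was 83.6% in AEBP2 replicate 1, 97.4% in AEBP2 replicate 2, 98.0% for FS2-AEBP2, and 97.1% and 95.7% in the H3K27me3 replicates. For the 12 paralogues the medians were 94.5%, 93.9%, 96.7%, 98.4% and 99.4%. In AEBP2 replicate 2 all 4 posterior HoxA ranks (95.7% to 98.2%) lay above all 6 of Hoxa2 to Hoxa7 (85.1% to 94.0%). In the other lists the ranks overlapped, and several genes share 1 peak. Ranked among promoter peaks alone, Hoxa13 in H3K27me3 replicate 1 stood at 46.5% in place of 79.4%.

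Of the 8 Hox cofactor genes examined, whose TALE homeodomain proteins bind DNA together with Hox proteins, 3 had a promoter peak in all 5 lists, namely Meis1, Meis2 and Pknox2. Meis3 had peaks for H3K27me3 only, Pbx3 in AEBP2 replicate 2 only, and Pbx2, Pbx4 and Pknox1 in no list. No more than 9.11% of a cofactor gene's body was covered in any list, but some of these records are long. Those of Meis1, Meis2 and Pknox2 measure 138529, 202776 and 256330 bp, against 9658 bp for Hoxa10. Over the 5 lists, the 10 kb centred on the start site was covered to 36.45% to 94.8% for Meis1 and 82.4% to 100% for Meis2. For Pknox2 it was covered to 28.3% to 45.7%.

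Of 8 genes that mESCs express as markers of the pluripotent state, 7 had no promoter peak in any list (Pou5f1, Nanog, Sox2, Esrrb, Zfp42, Tdgf1 and Dppa5a), and Klf4 had 1 for FS2-AEBP2 and in H3K27me3 replicate 1. Most promoters had no peak in any given list, as 6.53% to 22.3% of all protein-coding promoters had one. Esrrb had peaks on its body in all 5 lists, covering 0.984% to 18.4% of it. Of 6 marker genes of other cells (Gata4, Gata6, Sox17, Cdx2, Col1a1 and Thy1), 6 had H3K27me3 promoter peaks in both replicates and 3 had peaks in all 5 lists. Expression was not measured in these lists.

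The genes whose profile was most like that of each posterior HoxA gene were sought by the distance between the percentages of the 10 kb around the start site that the 5 lists covered, over 22354 genes, with those within 50 kb of the HoxA cluster left out. Without that limit, Hoxa7 would be among the 3 nearest to Hoxa9 and Hoxa5 among the 3 nearest to Hoxa11. Nearest to Hoxa9 were Nkx2-3, Tbx1 and Prdm16, at 1.37, 1.56 and 2.81 percentage points. Nearest to Hoxa10 were Fev, Dlx6 and Foxb2, at 7.86, 9.91 and 9.95 points, and to Hoxa11 Hoxc11, Meis2 and Sim2, at 7.05, 9.11 and 9.18 points. Hoxa13 had the most distant neighbours, Zic4, Otx2 and Hmx3, at 15.6, 17.5 and 19.8 points. The profiles rest on 5 values a gene, and those of Hoxa9 and its neighbours are near 100% in 3 lists.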

How the data were processed

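Wild-type mESCs were analysed in 5 of the 13 samples, and the other 8 were not analysed here. The authors aligned reads to mm9 and called broad peaks in each sample separately. The submitters' processing notes name Bowtie, SAMtools, Picard and MACS2 2.0.10.2, with no settings. The authors deposited for each peak its position, a whole-number score of unstated scale and a list of inner blocks. End blocks of 1 bp were dropped. Read depth is unknown, so no interval for depth could be given. Peaks outside the assembled chromosomes (2 in AEBP2 replicate 1, 13 in H3K27me3 replicate 2) were left out. An overlap of 1 bp counted. Cover was computed in base pairs against GENCODE vM1 on NCBIM37 (mm9). On 20 simulated lists, all 4000 queries of the interval functions matched a count base by base. The genes and gene lists were chosen with earlier results of these data known, so every value is descriptive and no test was run. Some items are not reported here, and the anterior stretch and the list of cofactors were set without them after the values were seen. The named genes were the 4 members, Hoxa2 to Hoxa7, the neighbours in the cluster, the paralogues, the cofactors, the marker genes and the 3 genes with the nearest profile. Python 3.11.15 with numpy 2.4.6, pandas 2.3.3 and matplotlib 3.10.9 was used.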

Additional observations from a re-analysis of the deposited data

How the results depend on the processing

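All 4 promoters kept a peak in each list with promoters of 500 bp or 2.5 kb on either side, with at least 50% of the window covered, and with every annotated start site required. With only peaks scored at or above the list's median, 3 of the 4 kept a peak in AEBP2 replicate 1, Hoxa10 being lost, and 4 in each other list. The cover of the Hoxa9 to Hoxa13 stretch moved more. With inner blocks it was 30.9% and 47.2% in the AEBP2 replicates, 76.3% for FS2-AEBP2 and 60.1% and 89.4% for H3K27me3. Joining peaks within 1 kb gave 85.8%, 86.2% and 93.3% for the 3 AEBP2 lists. Widening the stretch by 5 kb gave 93.6% for FS2-AEBP2 and 81.2% in AEBP2 replicate 1, and peaks scored at or above the median gave 71.7% in AEBP2 replicate 1. The part covered in both AEBP2 replicates was 72.1%, against 76.5% to 81.5% when either was left out. For H3K27me3 it was 89.5%, and 89.5% to 100% when either was left out. The difference between the ends kept its sign with peaks scored at or above the median, and with peaks joined it was 32.4 and 14.9 points in the AEBP2 replicates, -3.75 for FS2-AEBP2, and 0.716 and 0 for H3K27me3. Ranked among the highest-scoring peaks of promoters only, all 20 score ranks fell by 0.705 to 32.9 points, and the Hoxa13 rank in H3K27me3 replicate 1 went from 79.4% to 46.5%. Of 80 values for single genes, 19 were classed as moved, which for the endogenous targets means by more than the spread of the replicates. FS2-AEBP2 has no replicate, so its values among them could not be set against such a spread. The causes were not tested. No paired analysis was possible because no result comes from a test. Peak borders depend on depth and on the caller's settings, neither of which is known here, so the cover of 1 list cannot be set against that of another as an amount of protein.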
